A study of Triticum aestivum with 6 samples.

Results

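Histones H3 and H4 were represented by 10 genes among the 861 transcript-model probes that the authors listed when they compared wheat seedlings from ultrasound-treated seed with seedlings from untreated seed. The 10 genes were chosen by their descriptions in the authors' deposited table, namely Histone H3 (5 genes), Histone H3.2 (2 genes) and Histone H4 variant TH011 (3 genes), and each probe had to carry the description of its own gene. All 10 were therefore genes that had already passed the authors' test in this comparison, at an adjusted p-value (false discovery rate, FDR) under 0.05. Their fold changes and p-values are given below as a description of that selection, and no further test was applied to them.

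In the treated group, seed of the winter wheat breeding line SE15 (Triticum aestivum) was sonicated at 30 kHz and 70 W for 5 minutes, 4 cm from the ultrasound head, and the control group received no ultrasound. Both groups started from 100 seeds with 13.6% water, germinated in the dark at 20 °C and were sampled as leaf tissue 7 days after germination, with 3 samples per group in the labels. The deposited tables name the compared groups US1 and K1 and hold no value for any single library, so depth, expression level and the spread between replicates are unknown, n is at most 3 per group, and the leaf label could not be checked against marker genes. The labels do not tie the samples to separate dishes or plants, and the spread behind the authors' p-values could be technical.

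Histones H3 and H4 pair with each other and form the tetramer at the centre of the nucleosome, the particle around which DNA is wrapped. Dimers of histones H2A and H2B complete the particle. Plants carry many copies of each histone gene, and most of them are transcribed mainly while DNA is being replicated, when new chromatin needs new histones. Replacement variants of H3 are made outside of replication too. Plant histone messenger RNAs carry a poly(A) tail, unlike most replication-dependent histone messages of animals, and can be captured with the poly-T beads used here. In a grass leaf, cell division is concentrated at the base of the blade. In whole leaf tissue, a change in the number of dividing cells and a change in histone RNA per cell cannot be told apart.

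All 10 H3 and H4 genes lay on the positive side of the authors' log2 fold change. The headers do not say which group was divided by which. The positive side would mean more RNA after ultrasound if US1 was divided by K1, and less if it was the other way round. In the authors' deposited table, 1.12% of the 76618 tests implied by its FDR values were listed on either side, and 0.576% were listed on the positive side (441 probes, while the negative side held 420). How many H3 and H4 genes were tested without being listed is not analysed here, so the share of the family that was listed is unknown. The median log2 fold change over the 10 genes was 1.72 (3.30-fold), and over all 441 listed probes of the positive side it was 1.90 (3.72-fold). After the authors' shrinkage, which pulls imprecise fold changes towards 0, the medians were 1.19 (2.28-fold) for the 10 genes and 1.27 (2.41-fold) for the positive side. Of the 441 probes on the positive side, 182 (41.3%) had a shrunk value within the range of the 10 genes.

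**Figure D1:**
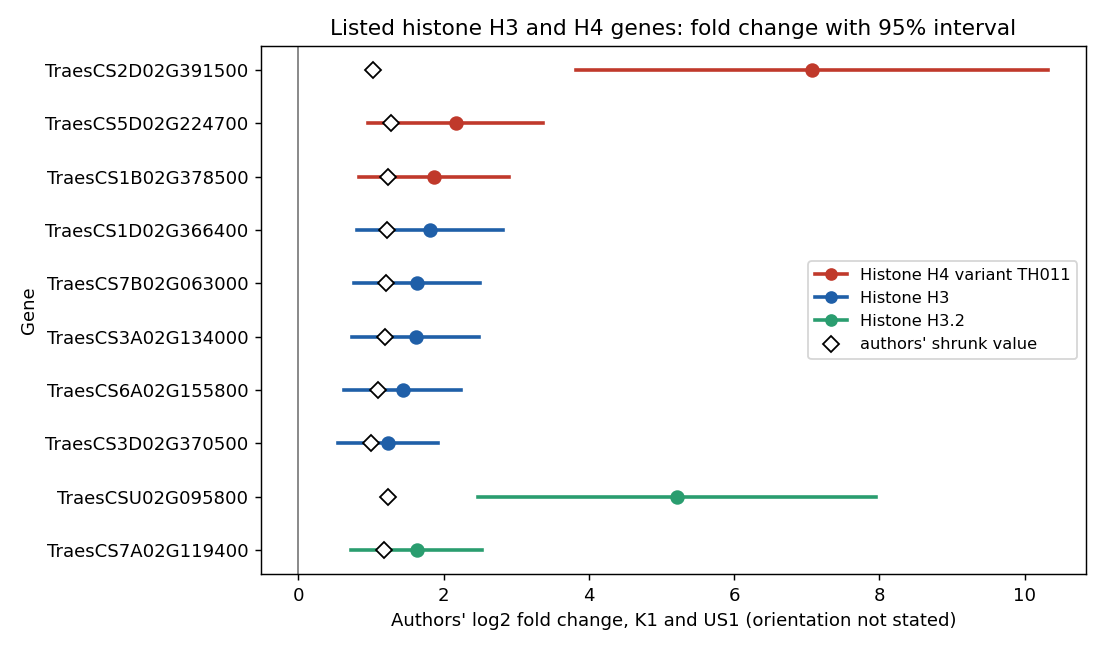
Authors' log2 fold change of each H3 and H4 gene (horizontal axis, log2 units), 1 gene per row, grouped by description. Filled circles are unshrunk values with the 95% interval from the implied standard error, and open diamonds are the authors' shrunk values. All 10 genes lie to the right of 0, and the shrunk values fall between 1.00 and 1.27 although the unshrunk values run from 1.23 to 7.07.

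Histone H4 was represented by 3 genes that share 1 protein entry in their descriptions. Each is given here with the authors' log2 fold change, the standard error (SE) implied by that value and its p-value, and the 95% interval that follows from the SE. The DESeq2 adjusted p (FDR) is the authors' own. TraesCS2D02G391500 (chromosome 2D, 498766923 to 498767488, plus strand) had a log2 fold change of 7.07 (SE 1.66, interval 3.82 to 10.3) and an FDR of 0.00522. It had the largest unshrunk fold and the lowest FDR of the 10, and its shrunk value was 1.02. TraesCS5D02G224700 (5D, 332459160 to 332459471, minus strand) had 2.17 (SE 0.62, interval 0.96 to 3.37), an FDR of 0.0441 and a shrunk value of 1.27. TraesCS1B02G378500 (1B, 610893263 to 610893574, plus strand) had 1.87 (SE 0.53, interval 0.83 to 2.90), an FDR of 0.0410 and a shrunk value of 1.24. The 5D and 1B genes were close in size and precision, while the interval of the 2D gene began above the upper ends of both. That gap was present before shrinkage and not after it, because the 2D gene had the lowest shrunk value of the H4 genes.

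Histone H3, under that description, was represented by 5 genes, and their unshrunk fold changes were the closest together of the 3 descriptions. In shrunk values the 2 Histone H3.2 genes were closer together (1.17 to 1.23). TraesCS1D02G366400 (1D, 446437109 to 446437519, plus strand) had a log2 fold change of 1.81 (SE 0.51, interval 0.80 to 2.82) and a DESeq2 FDR of 0.0435. TraesCS7B02G063000 (7B, 67808072 to 67808798, plus strand) had 1.63 (SE 0.44, interval 0.76 to 2.50) and an FDR of 0.0294. TraesCS3A02G134000 (3A, 111105593 to 111106257, minus strand) had 1.62 (SE 0.45, interval 0.74 to 2.49) and an FDR of 0.0337. The fold changes of the 3 genes spanned 0.19, less than the SE of any of them. TraesCS6A02G155800 (6A, 144527634 to 144529061, minus strand) had 1.43 (SE 0.41, interval 0.63 to 2.23) and an FDR of 0.0446. TraesCS3D02G370500 (3D, 484339779 to 484340189, plus strand) had the smallest fold of the 10 genes, 1.23 (SE 0.35, interval 0.54 to 1.92), with an FDR of 0.0453. It was also the most precise of them. The shrunk values of the H3 genes ran from 1.00 for the 3D gene to 1.22 for the 1D gene. All but the 7B gene share 1 protein entry in their descriptions, and the 7B gene, which has an entry of its own, lay inside their range.

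Histone H3.2 was represented by 2 genes that share a protein entry and differed widely before shrinkage. TraesCSU02G095800, on sequence not placed on any chromosome (84330476 to 84331172 of the unplaced set, minus strand), had a log2 fold change of 5.21 (SE 1.40, interval 2.48 to 7.95) and a DESeq2 FDR of 0.0256. TraesCS7A02G119400 (7A, 76953570 to 76954235, minus strand) had 1.63 (SE 0.46, interval 0.73 to 2.53) and an FDR of 0.0405. Their intervals overlapped only at their ends, and their shrunk values were 1.23 for the unplaced gene and 1.17 for the 7A gene. The 7A H3.2 gene and the 7B H3 gene had nearly equal values, 1.63 each, although their descriptions differ. Positions are as deposited. Neither the headers nor the labels name their genome build, and the annotation beside each probe says only that it overlaps its gene, without telling exon from intron or UTR.

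In unshrunk size the 10 genes therefore formed 8 close values and 2 distant ones. The 8 genes with an SE under 1 ran from 1.23 to 2.17, with SEs from 0.35 to 0.62. Their 95% intervals shared the stretch from 0.96 to 1.92. Overlap alone does not decide an order, and the SE of a difference between genes of the same libraries is unknown. No order among them is therefore read from these values. Listing required a fold that was large for its SE, so intervals that leave out 0 follow from the selection. The intervals do not allow for that selection, and the folds may be overstated by it. The 2D H4 gene and the unplaced H3.2 gene had SEs of 1.66 and 1.40. An SE over 1 was found for 66 of all 861 listed probes (7.67%). The unshrunk ratio was 135 for the 2D gene, 37.1 for the unplaced gene and 2.35 for the 3D H3 gene, a 57.3-fold span between the largest and the smallest. After shrinkage the corresponding ratios were 2.03, 2.34 and 2.01, and over all 10 genes the largest was 1.20 times the smallest. Shrinkage kept 14.5% of the log2 fold change of the 2D gene and 23.6% of that of the unplaced gene, against 58.6% to 81.6% for the other 8. The 2D gene stood at rank 10 of 861 by unshrunk size and at rank 747 by shrunk size.

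**Figure D2:**
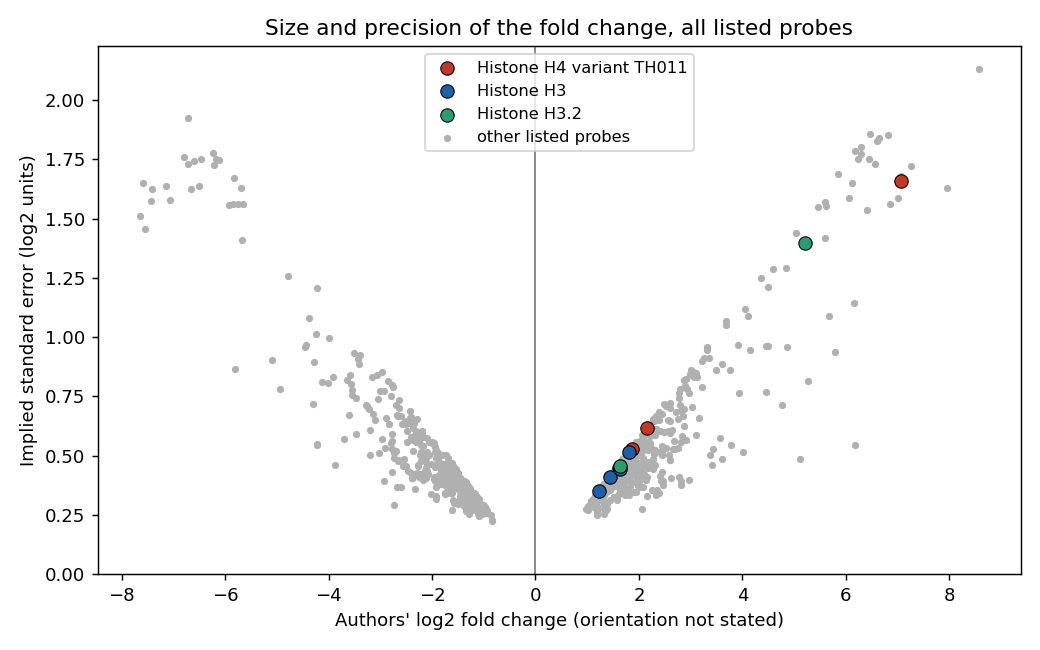
Authors' log2 fold change (horizontal axis) against the implied standard error in log2 units (vertical axis) for all 861 listed probes, with the H3 and H4 genes as large coloured points and the other probes in grey. Of the 10 genes, 8 lie among the bulk of the positive side (1.23 to 2.17, SE 0.35 to 0.62) and 2, the 2D H4 gene (7.07, SE 1.66) and the unplaced H3.2 gene (5.21, SE 1.40), lie in its large, imprecise arm.

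The SE can be derived a second way, from how far each value was shrunk, taking the median shrinkage of the table as the prior. That median was computed with the SEs of the first route, so the routes are not independent and should be close for most probes. The second route also assumes that a single prior holds for every probe, which was not tested. For the 8 close genes the routes differed by at most 0.928% of the SE. For the 2D H4 gene the second route gave an SE of 1.80 in place of 1.66, and for the unplaced H3.2 gene 1.33 in place of 1.40. The 95% interval of the 2D gene then began at 3.55 and that of the unplaced gene at 2.60, so that it no longer met the interval of the 7A H3.2 gene.

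Of the 5 listed probes whose fold and SE lay nearest those of the 2D H4 gene, only 1 had a description of its own gene. That description was not of a histone, and what the other probes encode is not given. Over all listed probes, 232 of 861 had a description of their own gene. The measure was the straight-line distance between the points in log2 units, over values from 1 comparison. The nearest was TraesCS4D02G073800, without a description, at 7.07 (SE 1.68). TraesCS5D02G464900, a chlorophyll a-b binding protein of the light-harvesting antenna, was at 7.01 (SE 1.58). TraesCS2B02G528900 (7.26, SE 1.72) and TraesCS4A02G473600 (6.85, SE 1.56) had no description, and for TraesCS2B02G013100 (6.82, SE 1.85) the table gives that of another gene. All 5 had shrunk values between 0.71 and 1.22.

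Most H3 and H4 genes lay late in the table. At a stricter FDR under 0.01, 1 of the 10 genes was left, the 2D H4 gene, against 361 of all 861 listed probes (41.9%). Over all tests, 0.471% were under that FDR on either side and 0.221% on the positive side. The other 9 genes had an FDR above 0.025, as had 306 of all listed probes (35.5%). The 8 close genes stood between rank 603 and rank 784 by p-value. The weakest of the 10, the 3D H3 gene, had a p-value of 0.000467, and the last probe of the table had an FDR of 0.0499. H3 and H4 genes just outside the threshold are not analysed here. The FDR of the last probe implies rank 867, so 6 further probes may have passed without being among those analysed.

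**Figure D3:**
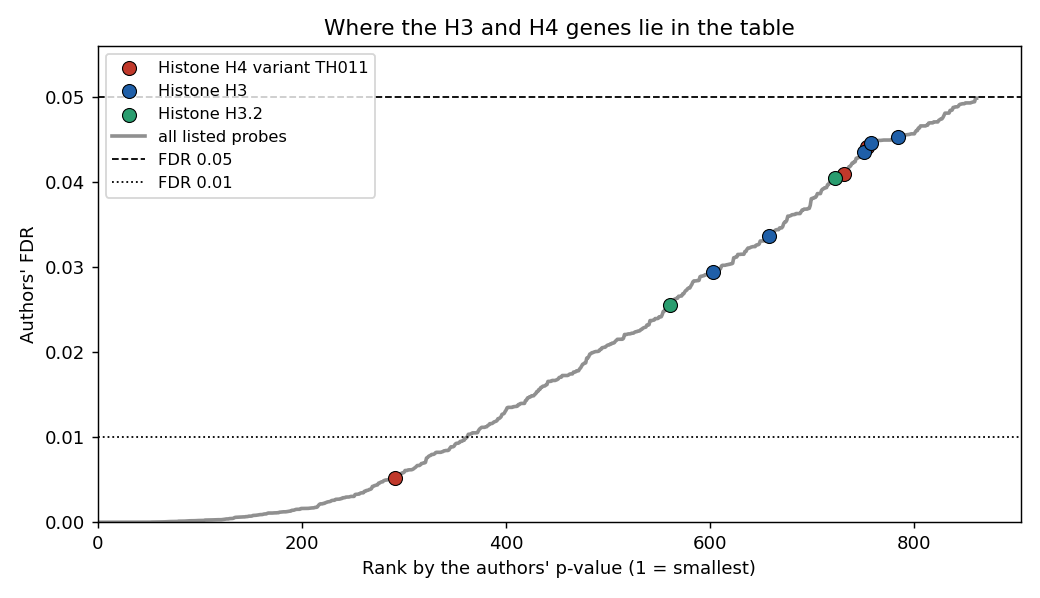
Authors' FDR (vertical axis) against rank by p-value (horizontal axis, 1 is the smallest) for all 861 listed probes as a grey line, with the 10 H3 and H4 genes as coloured points. One H4 gene, at rank 291, lies under the dotted line at 0.01, and the other 9 lie between 0.0256 and 0.0453, below the dashed line at 0.05.

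The probes of the H3 and H4 genes were short. Their median length was 616 bases and their range 312 to 1428 bases, while the median of all listed probes was 1789 bases. Probes of the 9 listed H2A and H2B genes were short too, from 480 to 901 bases. Length was counted from the deposited start to the deposited end, with any introns included. The 5D and 1B H4 probes were both 312 bases long, and the 1D and 3D H3 probes were both 411 bases long. Both lengths are whole numbers of triplets, 104 and 137. The whole table held 14 probes of at most 411 bases, and 4 of them were these genes. That limit was set at the longer of the shared lengths, so the share of these genes depends on it. The other 10 had no description, 7 negative and 3 positive. The longer probes with an SE under 1 had log2 fold changes from 1.43 to 1.63. Of the 4 shortest H3 and H4 probes, 3 lay above that range (1.81, 1.87 and 2.17) and 1 below it (1.23), with 95% intervals that overlapped those of the longer probes. Of the 10 probe names, 3 begin with the word transcript and 7 do not, against 174 and 687 of all listed probes. The part played by probe length in these values was not tested.

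Each of the 10 genes lay on a different chromosome or set, with 3 on subgenome A, 2 on B, 4 on D and 1 unplaced. Of all 861 listed probes, 264 were on A, 278 on B, 311 on D and 8 unplaced. Wheat is hexaploid and usually has a counterpart of each gene on A, B and D. Of the descriptions, only Histone H3 appeared on more than 1 subgenome of the same chromosome group, on 3A and 3D, at 111 and 484 Mb. A shared description does not show that genes are counterparts, and unlisted counterparts were not examined. How often other listed probes had a listed counterpart was not counted. No listed probe overlapped any of the 10 genes. The nearest other listed probe was between 0.659 Mb (7A H3.2) and 21.8 Mb (7B H3) away. The median distance was 6.63 Mb, against 3.47 Mb over all listed probes. The nearest probe was closer than 1 Mb for 2 of the 10 genes, against 265 of all 861 listed probes (30.8%). That nearest probe was on the negative side for 7 of the 10 genes, while 420 of all 861 listed probes were negative. Histone copies are nearly identical in sequence, and no header or label says how the authors assigned reads that match several copies, so a single gene's value may hold reads of other copies.

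The partners of H3 and H4 in the nucleosome had values of similar size. Histones H2A and H2B were represented by 9 listed genes, all on the positive side, with medians of 1.59 (unshrunk) and 1.15 (shrunk) on the log2 scale (range 1.10 to 1.41). Over all 441 listed probes of the positive side the shrunk median was 1.27, so values of this size are common there. An FDR under 0.01 was found for 1 of the 9, as for 1 of the 10 H3 and H4 genes. It was found for 169 of the 441 probes (38.3%). The largest shrunk values of the group were those of histone H2A genes TraesCS5A02G246200 (1.41) and TraesCS6B02G048300 (1.22). Both sets thus hold 1 gene with a very large and imprecise unshrunk fold at an FDR under 0.01. In the H2A and H2B set it is the H2B gene TraesCS5A02G384300 (7.95, SE 1.63, shrunk 1.15), a gene chosen after its values were seen.

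Other genes of chromatin assembly, DNA replication and cell division were few in the table. The description of a histone-fold domain, the fold shared by core histones and some transcription factor subunits, was given to 3 genes. All were positive, with FDRs under 0.01, as had 169 of the 441 listed positive probes (38.3%), and their median shrunk value was 1.95. TraesCS4A02G081000 had the largest shrunk value of these, 2.26, and TraesCS4D02G223400 had 1.95. Every H3 and H4 gene lay below the lowest of the 3, at 1.50. The DNA replication list held 1 gene, DNA topoisomerase 2 (TraesCS1D02G260500), which untangles DNA, with a shrunk value of 1.31. The mitosis list held condensin complex subunit 2 (TraesCS6B02G341400, shrunk 1.30), which compacts chromosomes, and a tubulin beta chain (TraesCS5A02G534300, shrunk 1.21), a building block of the spindle and other microtubules. All of these were positive. The lists of linker histones, histone chaperones and histone-modifying enzymes had no listed member. Since 620 of the 861 listed probes had no description, these counts do not show absence.

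**Figure D4:**
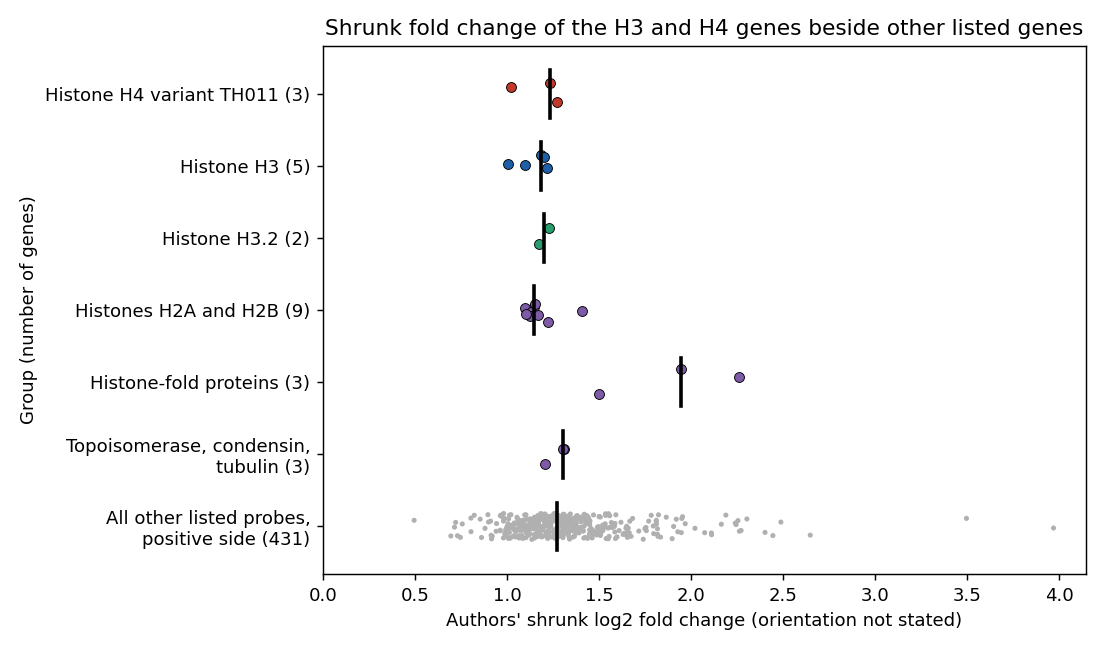
Authors' shrunk log2 fold change (horizontal axis) of each listed gene, by group, with the number of genes in brackets and a black bar at the median. Grey points are all listed probes of the positive side outside H3 and H4, and they include the other groups shown. The H3 and H4 genes lie between 1.00 and 1.27, close to histones H2A and H2B (1.10 to 1.41) and below the histone-fold genes (1.50 to 2.26).

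The authors' second deposited table, a selection of 52 probes by a Z-score of the difference between the same groups, held none of the 10 H3 and H4 genes. Of all 861 listed probes, 18 had their gene there, and of the 441 on the positive side, 15. So few were shared that the lack of H3 and H4 genes is not particular to them. A histone word occurred there for 1 gene, the histone-fold gene TraesCS4A02G081000, with a Z-score of -4.38 and an FDR of 0.0229 in that table. Its DESeq2 log2 fold change was positive (5.27), so the deposited values have opposite signs for this gene. Which group was subtracted from which is not stated for the Z-score either. No header or label names the test that gave the score.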

How the data were processed

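Leaf messenger RNA was sequenced from 3 samples of the ultrasound group and 3 of the control group, assigned by their titles. Per the submitters' processing notes, the tools were STAR 2.7.10a, Trim Galore 0.6.7, FastQC 0.11.9 and DESeq2, with no role or order given. Per the labels' protocols, poly-T beads and random hexamers were used, and no strand marking is described. Per the file headers, the authors deposited a p-value, an FDR (adjusted p-value), a log2 fold change and a shrunk log2 fold change per probe in one table, and a p-value, an FDR and a Z-score of the difference (a score) in the other. No column holds values per sample, so the planned edgeR or limma fit was not run.

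Assuming a Wald test, the SE was computed from each log2 fold change and its p-value, read as two-sided, with 95% intervals of the normal form. The number of tests was recovered as the highest FDR times rank over p. Both steps were run on simulated Wald tests. That checks only the arithmetic, since the simulation has the assumed form, and cannot show that the authors' p-values have it. Python 3.11.15, pandas 2.3.3 and scipy 1.17.1 were used. Gene names come from the deposited descriptions; the RefSeq gene table matched 0 of the 10 identifiers. The genes, lists and alternatives were chosen with earlier results of these data known. All 10 genes are named, with the 2 largest shrunk values of each of 7 lists and the 5 probes nearest in fold and SE to the gene of lowest FDR.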

Additional observations from a re-analysis of the deposited data

How the results depend on the processing

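The count of 10 H3 and H4 genes was the same when the description of the annotated gene was used whatever gene the probe names, when a shrunk log2 fold change of at least 1 was required, when overlapping probes were counted once and when any wording of histone H3 or H4 was accepted. At an FDR under 0.01 the count was 1. The median log2 fold change of 1.72 became 1.63 both with weights by the inverse squared SE and on placed chromosomes only, 1.19 with the authors' shrunk values and 7.07 at an FDR under 0.01, where 1 gene was left. No median could be negative under these settings, since each used only the 10 genes, all of them positive. No paired analysis was possible because the deposited tables hold no values per sample, and for the same reason replicates could not be left out in turn and other normalizations, pseudocounts or filters could not be run. Depth is unknown.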
